A study of Homo sapiens with 6 samples.

Results

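The genes described here are 8 that make polyamines or control how much of them a cell holds: ODC1, AZIN1, OAZ1, OAZ2, AMD1, SRM, SMS and SAT1. They were chosen by symbol, with earlier results of these data known, out of 11227 named genes that have a row in any of the 3 deposited tables, and the proposal drew on their levels and 5′ UTR depth in the same tables, so the values below are descriptions. Each gene is read from its RefSeq transcript with the most depth summed over the tables. All 8 had a row in every table, and 7 were above the depth minimum, the lower quartile of row sums, in all 3 tables, as were 7073 genes in all; SAT1 passed it for the treated cells only.

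Ribosome-protected fragments were sequenced from the melanoma line CHL-1, an established line of human origin, in 3 conditions with 2 libraries each. Of these, 1 per condition is labelled "rRNA removed", and the label does not say how. The conditions are CHL-1 given 10 mM of the proline analog L-azetidine-2-carboxylic acid (AZC) and 20 µM of the proteasome inhibitor MG132 for 20 minutes, CHL-1 edited by CRISPR at the small nucleolar RNA genes SNORD50A and SNORD50B, and untreated parental CHL-1. Whether the edited line is 1 clone is not stated, and no line edited at a control site is among the groups. Both libraries of a condition are represented by a single table, so there is no spread between replicates and no p-value below, and every difference is one between single tables.

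The tables hold 18409 to 19783 transcripts and a summed depth, in units of 1000000, of 367.3 to 586.4. Neither the host gene of the edited snoRNAs nor the snoRNAs have a row, so the edit cannot be checked here. SOX10 and S100B, markers of the melanocyte lineage, stood at 322.5 to 395.7 and 29.8 to 41.4 in normalised depth; PMEL (no row in the CRISPR table), MLANA and MITF stayed under 10, and TYR and TYRP1 have no row. DCT, another pigment gene, stood at 7.55 after AZC and MG132, 15.75 in edited cells and 4.14 in parental cells; its part in the results below was not tested. Of the keratinocyte, leukocyte and endothelial markers listed, KRT10 and PTPRC alone had a row. Across all rows, 5′ UTR bins held 15.7% of the depth after AZC and MG132, 10.7% in edited cells and 10.01% in parental cells. For the median gene, 79% of the coding bins had any depth after treatment, 63.5% in edited cells and 87% in parental cells.

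Polyamines (putrescine, spermidine and spermine) are small positively charged molecules that bind RNA and are needed for growth. ODC1, ornithine decarboxylase, makes putrescine; AMD1 supplies the aminopropyl donor, which SRM uses to make spermidine and SMS to make spermine; SAT1 acetylates polyamines for export or breakdown. Antizymes, encoded by OAZ1 and OAZ2, bind ODC1 and deliver it to the proteasome without ubiquitin, and AZIN1, an inactive relative of ODC1, takes the antizyme away. Polyamine levels feed back on translation: full-length antizyme needs a +1 frameshift that polyamines promote, and upstream reading frames in AMD1 and AZIN1 messengers hold ribosomes back when polyamines are plentiful. Polyamine synthesis is often raised in tumours.

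The upstream reading frame of AMD1 is the best known of these elements and lies close to the cap, so it is shown here with its start and stop codons in capitals, as read from the RefSeq promoter table of assembly GRCh38.p14 at chr6:110874796-110874816 on the plus strand.
AMD1 upstream reading frame: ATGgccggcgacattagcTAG
It has 6 codons before its stop and covers transcribed bases 12 to 32 or 13 to 33, depending on which of 2 annotated starts is used. AMD1 has 3 windows of annotated starts in that source, and the remaining window holds no ATG in its first 50 transcribed bases. An ATG followed by an in-frame TAA, TAG or TGA inside the first 50 transcribed bases, searched on the transcribed strand, was found in 10.2% of 35116 promoter windows. Among the 7 members that match the table, with 10 windows, it was found in 2 windows, both of AMD1. No sequence is shown for AZIN1.

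Levels below are normalised depth, meaning the depth of a transcript divided by the total of its table and multiplied by 1000000. Depth on a transcript joins the amount of its messenger and how often that is translated, and these cannot be told apart without RNA-seq, which is not used here. Coding lengths were not used, so a level is compared for 1 gene between tables and not between genes. A gene is called past 2-fold where its log2 ratio (pseudocount 0.5 on the depth) is 1 or more in size, which sets a size and tests nothing. In cells given AZC and MG132, 1 of the 7 members compared was past 2-fold lower than in the parental table (ODC1) and 0 were past 2-fold higher, where 2.39% of 7277 genes were lower and 0.866% higher. In the edited line 0 of 7 were past 2-fold against the parental table, where 1.1% of 7540 genes were higher and 1.3% lower. The median log2 ratio of the 7 was 0.0089 for AZC + MG132 over parental, beside -0.05 over all genes, and -0.04 for CRISPR over parental, beside 0.0040.

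**Figure D1:**
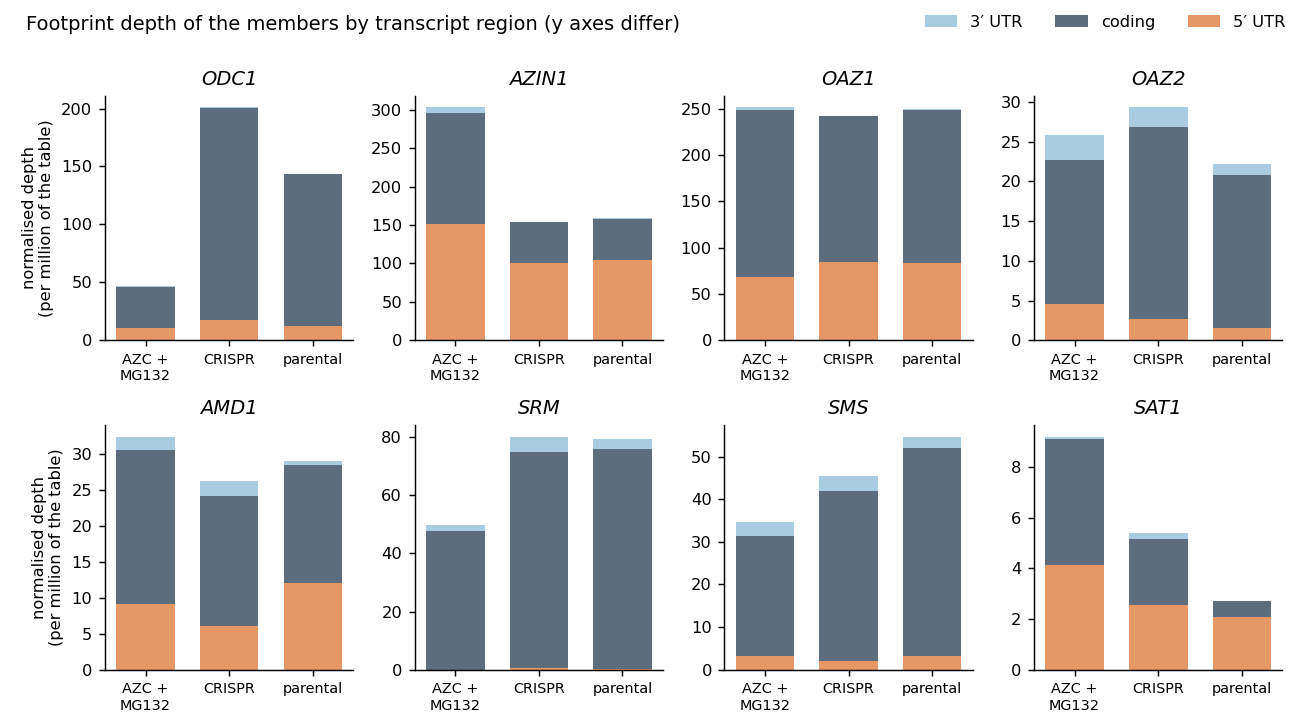
Normalised depth (per 1000000 of the table's total) of the 8 genes in the AZC + MG132, CRISPR and parental tables, as bars stacked by 5′ UTR, coding and 3′ UTR bins, 1 table per bar. ODC1 is lowest in the AZC + MG132 table (46.9), AZIN1 is highest there (303.2), and OAZ1 stands between 241.9 and 251.5 in all 3.

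ODC1 (NM_002539, chromosome 2) is the first and often limiting enzyme of the pathway. Its level was 46.9 after AZC and MG132, 201.1 in the edited line and 143.6 in parental cells. The treated cells were thus the low table and the edited line the high one. The log2 ratio was -1.62 for AZC + MG132 over parental, lower than in all but 0.247% of genes, and 0.49 for CRISPR over parental, above 89.02% of genes and short of 2-fold. Between CRISPR and AZC + MG132 it was 2.10, and ODC1 was above 99.9% of genes; 1 of 7 members was past 2-fold higher and 0 lower, beside 4.13% and 2.33% of 7219 genes.

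The fall of ODC1 after AZC and MG132 lay mostly in the coding sequence. Coding depth was 35.3 in the AZC + MG132 table against 130.9 in the parental table, or 0.270-fold, while depth in the 5′ UTR was 10.4 against 12.4, or 0.837-fold. The first 100 coding bins were at a log2 ratio of -1.52 and the last 100 at -2.26, and 96.5% of coding bins had any depth in the treated cells, against 100% in both other tables. Both patterns were also seen over all genes. Their median log2 ratio was 0.03 in the first 100 coding bins and -0.39 in the last 100. The 5′ UTR to coding ratio rose in 84.1% of genes, and the rise for ODC1 was above 79.02% of them. In the edited line both regions moved by about the same amount, with 183.2 against 130.9 in coding bins (1.40-fold) and 17.3 against 12.4 in the 5′ UTR (1.39-fold).

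Along the 5′ UTR of ODC1, which is long and structured and holds a short upstream reading frame, depth was uneven. Bins 51 to 60 held 42.3% of 5′ UTR depth in the CRISPR table and 38.1% in the parental table, where the median gene has 2.32% and 4.91% in those bins. In the AZC + MG132 table the same bins held 14.8%, beside 5.34% for the median gene. The highest window there was bins 71 to 80 with 28.2%, against 6.47% in the parental table. Before scaling, these 2 treated windows held depths of 567 and 1076, which can come from few fragments. The concentration at bins 51 to 60 was thus stronger in the edited and parental tables. The bins were not mapped to bases, so the position of the upstream frame within them was not determined.

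**Figure D2:**
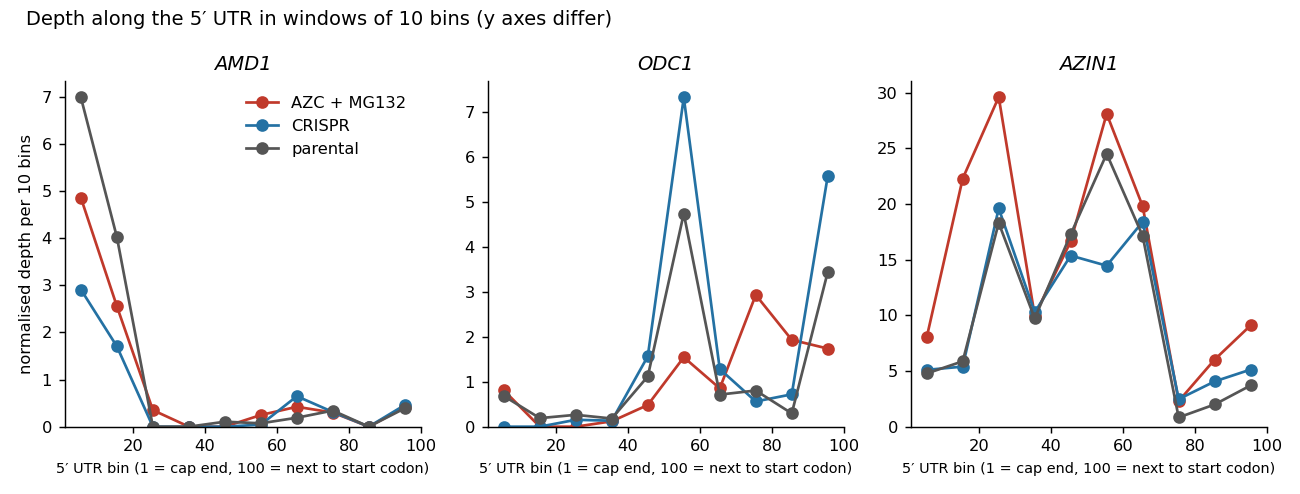
Normalised depth in windows of 10 bins along the 5′ UTR (bin 1 at the cap end, bin 100 next to the start codon) of AMD1, ODC1 and AZIN1, 1 line per table. AMD1 depth lies in the first 20 bins in each table, ODC1 has a peak at bins 51 to 60 in the CRISPR (7.32) and parental (4.74) tables, and AZIN1 carries depth over most of the region.

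AZIN1 (NM_015878, chromosome 8) moved the other way. Its level was 303.2 after AZC and MG132, 154.5 in the edited line and 158.7 in parental cells. The treated cells stood apart, and the other tables were close to each other. The log2 ratio over all bins was 0.93 for AZC + MG132 over parental, just short of 2-fold and above 98.7% of genes. In coding bins alone the level was 143.9 in the treated cells against 53.4 in the parental table, a log2 ratio of 1.43, above 99.7% of genes, beside 0.716% of genes past 2-fold higher and 4.6% lower in coding bins. The first and last 100 coding bins gave 1.498 and 1.352. CRISPR over parental was at -0.04 over all bins and -0.0004 in coding bins.

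AZIN1 carried more depth in its 5′ UTR than in its coding sequence in each table. The 5′ UTR held 151.9 in the AZC + MG132, 100.3 in the CRISPR and 104.1 in the parental table, which is 1.06, 1.88 and 1.95 times the coding depth. The 5′ UTR of the median gene held 12% of coding depth in the AZC + MG132, 6.53% in the CRISPR and 5.97% in the parental table, and AZIN1 was above 96.8%, 99.4% and 99.6% of genes. The 5′ UTR of AZIN1 is known for a conserved upstream frame that begins at a codon other than AUG. Bins 21 to 70 held 68.6% of 5′ UTR depth in the AZC + MG132, 77.9% in the CRISPR and 83.5% in the parental table. Bins 11 to 20 held 22.3 in normalised depth in the treated cells, 5.40 in the edited line and 5.87 in the parental table, the widest proportional gap between treated and parental cells among the 10-bin windows. A second AZIN1 row (NM_148174) had coding depths of 52871, 31293 and 25285 beside 52850, 31298 and 25289 in the row used, so the rows share reads and are not independent.

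Set against each other in coding bins, ODC1 and AZIN1 moved apart in the treated cells: the log2 change of the ODC1 to AZIN1 ratio was -3.32 over parental, and 0.49 in the edited line. They had the lowest and highest coding log2 ratios among the members compared in the treated cells, at -1.89 and 1.43. A large change thus follows from the choice of this pair, and ratios of pairs were not computed over all genes. For the ODC1 to OAZ1 ratio it was -2.03 in the treated cells and 0.54 in the edited line.

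OAZ1 (NM_004152, chromosome 19), the main antizyme, had a level of 251.5 in the AZC + MG132, 241.9 in the CRISPR and 249.96 in the parental table. The tables were within a few percent of each other, with log2 ratios of 0.0089 for AZC + MG132 over parental and -0.05 for CRISPR over parental. OAZ2 (NM_002537, chromosome 15), a second antizyme, stood at 25.9 in the AZC + MG132, 29.35 in the CRISPR and 22.2 in the parental table, at log2 ratios of 0.22 and 0.40 over parental.

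Depth along the antizyme coding sequences was heavily loaded towards the start. The first 60 of the 200 coding bins of OAZ1 held 81.3% of its coding depth in the AZC + MG132, 87.9% in the CRISPR and 88.01% in the parental table, against 36.9%, 29.7% and 29.2% for the median gene. These shares were above those of 99.7%, 99.8% and 99.8% of genes. Most of it was in the first 20 bins, with 51.9%, 67.96% and 64.9% of coding depth, and a further step came after bin 60: bins 41 to 60 held 14.2% in the AZC + MG132, 12.2% in the CRISPR and 12.5% in the parental table, and bins 61 to 80 held 1.31%, 2.66% and 1.43%. Bins 81 to 100 held 5.92%, 2.50% and 3.05%, so bins 61 to 80 were a low point in the AZC + MG132 and parental tables. These later shares were still under the lower quartile over genes, 6.001%, 5.985% and 7.086%.

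OAZ2 was also loaded towards the start, with an earlier step. Its first 40 coding bins held 48.9% of coding depth in the AZC + MG132, 52.9% in the CRISPR and 61.1% in the parental table, against 26.2%, 19.5% and 19.2% for the median gene. Bins 41 to 60 then held 5.32%, 0.0987% and 1.79%. The low share did not hold along the rest in each table, as bins 81 to 100 held 8.17%, 17.4% and 4.98%. The windows of both genes were chosen after their profiles were seen. As background, the antizyme frame that starts at the AUG runs into a stop codon in its earlier part, and only ribosomes that shift frame there go on. The shift site was not placed on the bins here, and the bins carry no reading frame, so the steps are given as positions and not as frameshift rates.

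**Figure D3:**
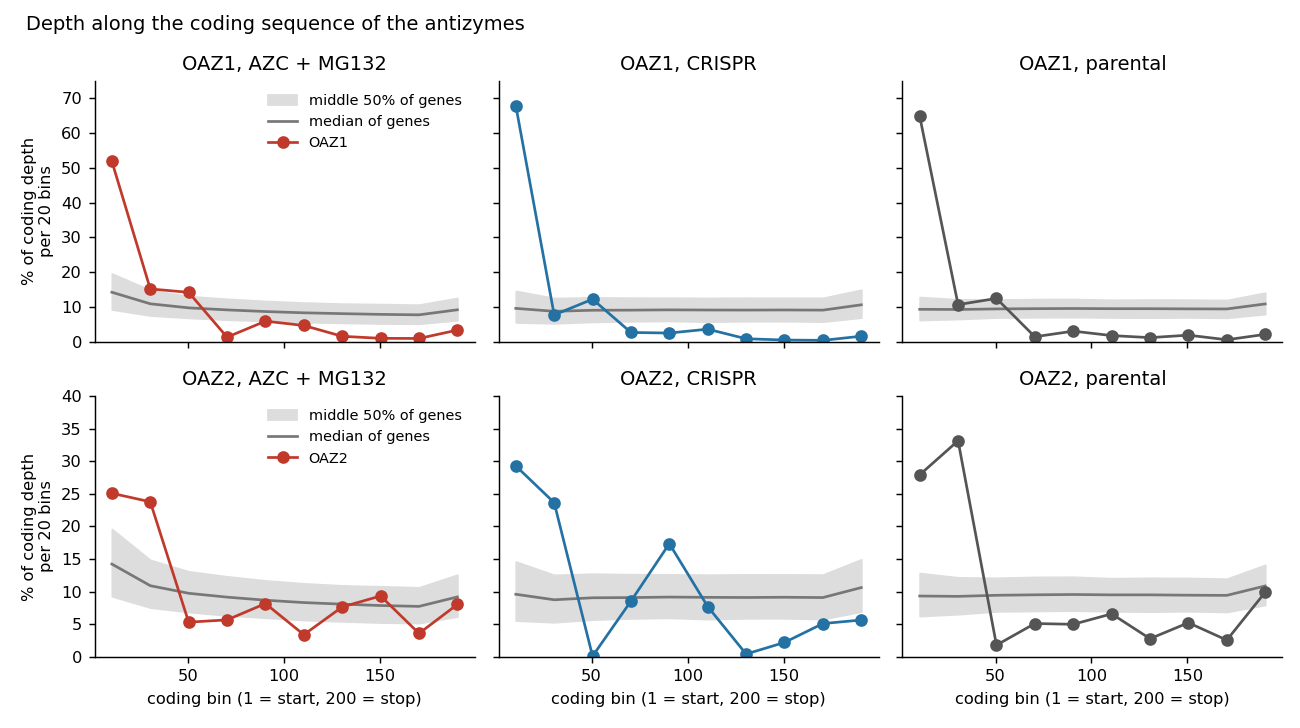
Share of coding depth (%) in windows of 20 bins along the coding sequence (bin 1 at the start, bin 200 at the stop) of OAZ1 and OAZ2 in the AZC + MG132, CRISPR and parental tables; the grey line and band are the median and the middle 50% of genes above the depth minimum. OAZ1 drops below the band at bins 61 to 80 and OAZ2 at bins 41 to 60 in each table. At bins 81 to 100 OAZ2 returns above the band in the CRISPR table (17.4%) and into it in the AZC + MG132 table (8.17%).

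OAZ1 had more depth after the step in the treated cells. Bins 61 to 200 held a normalised depth of 33.7 in the AZC + MG132, 19.1 in the CRISPR and 19.7 in the parental table, while bins 1 to 60 held 146.5, 138.6 and 144.5. In the last 100 coding bins the log2 ratio of AZC + MG132 over parental was 0.75, short of 2-fold and above 97.5% of genes, whose median in those bins was -0.39. For CRISPR over parental it was -0.17, beside a median of -0.03. The last 100 bins of OAZ2 stood at 0.17 for AZC + MG132 over parental and -0.03 for CRISPR over parental, with 64% of its coding bins covered in the edited line against 93.5% in parental cells.

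AMD1 (NM_001634, chromosome 6), S-adenosylmethionine decarboxylase, stood at 32.4 in the AZC + MG132, 26.2 in the CRISPR and 29.05 in the parental table. Its log2 ratios over parental were 0.16 for AZC + MG132 and -0.15 for CRISPR. The totals were close, but the regions were divided differently. The 5′ UTR held 9.14 in the AZC + MG132, 6.08 in the CRISPR and 12.1 in the parental table, and the coding sequence 21.4, 18.2 and 16.4. Depth in the 5′ UTR was therefore 42.7% of coding depth in the treated cells, 33.5% in the edited line and 73.9% in the parental line, above 83.5%, 85.5% and 95.8% of genes.

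Most of that 5′ UTR depth lay at the cap end. The reading frame printed above is also close to the cap, but bins were not mapped to bases, so the overlap was not tested. The first 20 of the 100 bins held 81.03% of it in the AZC + MG132, 75.9% in the CRISPR and 90.9% in the parental table, where the median gene has 0.165%, 0% and 0%. Bin 10 was the highest bin in each table. In normalised depth the first 20 bins carried 7.41 in the treated cells, 4.61 in the edited line and 11 in the parental line, and the other 80 bins 1.73, 1.46 and 1.10. The lower 5′ UTR depth of the treated and edited cells was thus in the cap-end bins, with no such fall seen in the rest of the 5′ UTR. Depth in that rest was small, at 637 in the AZC + MG132, 858 in the CRISPR and 521 in the parental table before scaling. It can come from few fragments, and 34 of the 100 5′ UTR bins had any depth in the CRISPR table. The coding sequence of AMD1 was covered in 89.5%, 67.5% and 87.5% of its bins in the AZC + MG132, CRISPR and parental tables.

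The 5′ UTR to coding ratio of each gene was then set beside that of all genes, since a ratio within a transcript does not depend on the scaling of a table. After AZC and MG132 the ratio was higher in 84.1% of 6765 genes, with a median log2 change of 0.86. Of the 6 members above the depth minimum with depth in both regions in both tables, 3 were lower: AZIN1 at -0.89, AMD1 at -0.79 and OAZ1 at -0.43, which put them above 4.46%, 5.22% and 8.34% of genes. ODC1 at 1.635, OAZ2 at 1.57 and SMS at 0.80 were higher; ODC1 and OAZ2 were past 2-fold, as were 44.3% of genes, while 0 of the 6 were past 2-fold lower, beside 4.01%. SAT1, under the minimum in the parental table, was at -1.99 and is not counted. In the edited line the change was -1.14 for AMD1, the only 1 of the 7 above the minimum past 2-fold, above 11.3% of genes, beside 13% of 6485 genes past 2-fold lower and 17.6% past 2-fold higher. For ODC1, AZIN1 and OAZ1 it lay between -0.05 and 0.06. Both comparisons share the parental table.

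**Figure D4:**
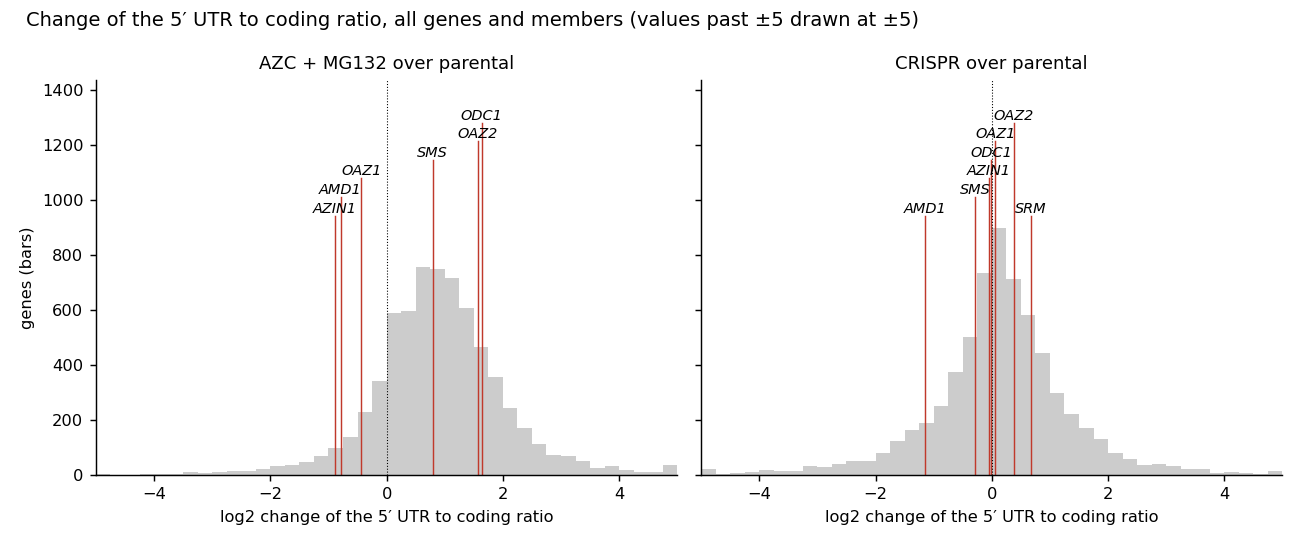
Log2 change of the 5′ UTR to coding ratio over all genes (grey bars, number of genes per step of 0.25) with the members marked by lines, for AZC + MG132 over parental and CRISPR over parental. In the treated cells AZIN1, AMD1 and OAZ1 lie left of 0 while 84.1% of genes lie right of it; in the edited line AMD1 is at -1.14.

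SRM (NM_003132, chromosome 1), spermidine synthase, stood at 49.8 in the AZC + MG132, 80.1 in the CRISPR and 79.4 in the parental table, with log2 ratios over parental of -0.67 and 0.01. SMS (NM_004595, chromosome X), spermine synthase, stood at 34.6, 45.4 and 54.7 in the same tables, with ratios of -0.66 and -0.27. The treated cells were the low table for both synthases, above 8.31% and 8.63% of genes and short of 2-fold. SRM had little 5′ UTR depth, 0 in the AZC + MG132, 0.474 in the CRISPR and 0.302 in the parental table.

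Both synthases held more than the median share of coding depth in the last 20 bins. The last 20 bins of SMS held 22.7% of coding depth in the AZC + MG132, 32.4% in the CRISPR and 22.5% in the parental table, against a median of 9.19%, 10.6% and 10.9% over genes. The last 20 bins of SRM held 13.5%, 22.3% and 17.2%, and its first 20 bins 2.94%, 1.17% and 2.88%. For SMS, the mean depth of the first 20 coding bins over the mean of all 200 was 2.155 in the AZC + MG132, 0.323 in the CRISPR and 0.967 in the parental table. The log2 ratio of this share was 1.16 for AZC + MG132 over parental, beside 26.8% of genes past 2-fold higher and 4.23% lower, and -1.58 for CRISPR over parental, beside 12.6% higher and 13% lower. The SMS values depend on the number of bins: with the first 10 bins they were 0.96 and -2.84, and with the first 40 bins 0.87 and -0.61, so only the value for CRISPR with 10 bins was still past 2-fold.

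SAT1 (NM_002970, chromosome X), the acetyltransferase of polyamine breakdown, had a level of 9.20 in the AZC + MG132, 5.41 in the CRISPR and 2.71 in the parental table. It is a low gene, under the depth minimum in the CRISPR table (3174 against 3696) and the parental table (1282 against 3187), so it was not compared. Its coding depth was 1840 over 72.5% of the coding bins in the treated cells, 1545 over 26% in the edited line and 300 over 9% in the parental line. Its 5′ UTR depth was 1512, 1490 and 982 in the same order of tables. A depth of this size can come from few fragments, whose number is not known, so its ratios are plotted as open symbols and enter no count of members above the minimum.

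**Figure D5:**
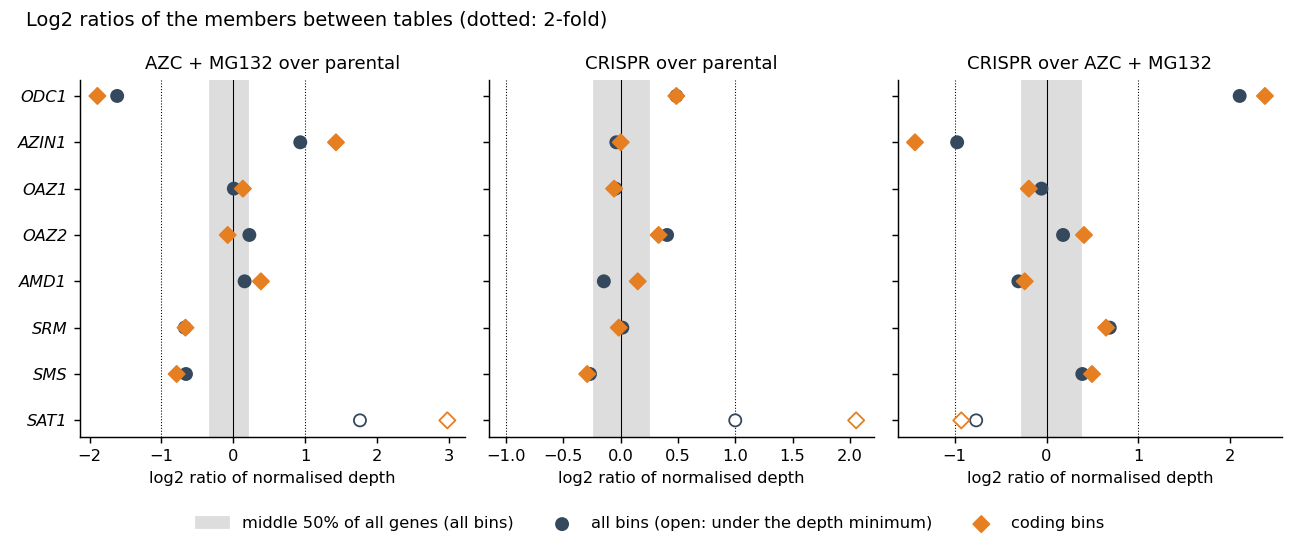
Log2 ratios of normalised depth of the 8 genes for AZC + MG132 over parental, CRISPR over parental and CRISPR over AZC + MG132, over all bins (circles) and coding bins (diamonds), with open symbols for SAT1, which was under the depth minimum, and the middle 50% of all genes in grey. ODC1 and AZIN1 are the members farthest from 0 in both comparisons with AZC + MG132 apart from SAT1; in CRISPR over parental the 7 compared lie between -0.27 and 0.49 over all bins.

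A wider list of 27 genes of polyamine regulation, breakdown, transport, hypusine formation and precursor supply was counted beside the members. Of these 23 had a row and 19 were compared. In the treated cells 1 was past 2-fold lower than in the parental table and 0 higher; over all genes 2.39% were lower and 0.866% higher. In the edited line 0 were past 2-fold in either direction against the parental table, beside 1.1% of all genes higher and 1.3% lower. The median log2 ratio of the list was -0.13 for AZC + MG132 over parental, beside -0.05 over all genes, and 0.05 for CRISPR over parental, beside 0.0040. The gene past 2-fold was ATP13A3, a polyamine transporter of the P5B ATPase group, whose value was already known when the list was made. It stood at 14.6 in the AZC + MG132, 54.8 in the CRISPR and 46.1 in the parental table, with log2 ratios over parental of -1.66 and 0.25. Its relative ATP13A2 was at 8.96, 14.5 and 14.5, a log2 ratio of -0.70 for AZC + MG132 over parental.

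The 2 most deeply covered genes of the list did not pass the limit. EIF5A, which carries the hypusine made from spermidine, was at 666.3 in the AZC + MG132, 615.2 in the CRISPR and 544.0 in the parental table, and SLC3A2, a subunit of amino acid transporters that has also been linked to polyamine export, at 396.6, 341.9 and 435.2. MAT2A, which makes S-adenosylmethionine, was at log2 ratios over parental of 0.30 for AZC + MG132 and -0.08 for CRISPR. OAZ3, known as the testis antizyme, had 11.8% of its depth in coding bins in the AZC + MG132 table and 0.0307% in the parental table, so its row says little of that messenger's coding sequence.

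The genes whose pair of log2 ratios (AZC + MG132 over parental, CRISPR over parental) lay nearest to that of ODC1, among 7072 genes above the depth minimum in all 3 tables, were ATP13A3 at a distance of 0.24, KIF21A and WAC at 0.25 each, and NCKAP1 and CHPT1 at 0.30 each. The likeness rests on 3 tables. For AMD1 the nearest of 3535 genes in the 5′ UTR to coding ratio over the 3 tables were SNRNP27 at 0.47, VASH1 at 0.63 and NSL1 at 0.69. The first 20 bins of the 5′ UTR held 75.9% to 90.9% of that region's depth in AMD1, against 3.01% to 4.05% in SNRNP27, 14.9% to 23.5% in VASH1 and 4.89% to 19.02% in NSL1.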

How the data were processed

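Fragments were sequenced in 6 ribosome profiling libraries of CHL-1 cells, 2 per condition. Cells were lysed with cycloheximide, per the labels' protocols. The submitters' processing notes name Bowtie2, TopHat2 and the build hg19, without versions. The deposited values are on a log2 scale, 400 bins per transcript, rounded to 2 decimals. The first 100 bins were read as 5′ UTR, the next 200 as coding sequence (numbered from 1 above) and the final 100 as 3′ UTR, judging by the values. How the authors joined both libraries and treated reads that match several genes is not given in the sources. Depth was taken back as 2 to the value, minus 1, read as summed base depth per bin. Coding bins also held the deposited value of the row above, which was subtracted; all low values (log2 under 4) then came out whole within 0.1. The number of fragments is unknown, so no counting interval is given.

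Names came from the RefSeq table of GRCh38.p14, which left 211 to 237 rows unnamed; these stayed in the totals. Genes were compared where the depth exceeded, in both tables, the lower quartile of their row sums (2614 in the AZC + MG132, 3696 in the CRISPR and 3187 in the parental table). The members, lists and windows were chosen with earlier results of these data known. Named are all members, list genes past 2-fold, the 2 list genes with the highest parental depth (depth per codon was planned, but no coding length was used), ATP13A2, MAT2A and OAZ3, which were added after their values were seen, and the 5 genes nearest to ODC1 and 3 nearest to AMD1. Python 3.11.15, numpy 2.4.6 and pandas 2.3.3 were used. The recovery of depth and the log2 ratios over all bins were checked on simulated tables, built with the same addition of the row above. That check could not test whether this reading of the deposited values is right. Ratios between regions and window shares were not checked in this way.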

Additional observations from a re-analysis of the deposited data

How the results depend on the processing

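ODC1 stayed past 2-fold in both comparisons with AZC + MG132 under the 11 alternatives, between -2.26 and -1.52 over parental and between 2.001 and 2.57 for CRISPR over AZC + MG132. Some of these could not move it. ODC1 has a single transcript row, so the alternatives on the choice of row left its value unchanged. The alternatives on the depth minimum alter only which genes are compared. Members past 2-fold, 1 as reported for AZC + MG132 over parental, numbered 2 with coding bins only, with the first 100 coding bins, with the top 1% of rows by depth kept out of the total or with no depth minimum, and 3 with the last 100 coding bins. Over all genes in those settings, in the same order, 5.31%, 8.06%, 3.23%, 6.74% and 13.9% were past 2-fold. For CRISPR over AZC + MG132, 1 as reported, the members past 2-fold numbered 2 with coding bins, the first 100 coding bins, scaling to the median ratio or the top rows left out, and 3 with the last 100. Over all genes these settings gave 8.60%, 13.7%, 6.51%, 6.52% and 18.8%, in the same order. In both comparisons AZIN1 was the member that joined, except with no minimum, where SAT1 did. SMS joined too with the last 100 bins. Over all genes 3.26% were past 2-fold for AZC + MG132 over parental (1.32% to 13.9% over the alternatives), 2.40% for CRISPR over parental (0.835% to 8.22%) and 6.46% for CRISPR over AZC + MG132 (2.81% to 18.8%). Of these the higher share was 26.6% in the first comparison and 39.3% scaled to the median ratio or 44.7% without the top rows, and 63.9% in the third, against 54.9% and 54.4%. The shift of depth towards the start of SRM, -1.29 for CRISPR over parental and -1.325 for CRISPR over AZC + MG132, turned to 1.005 and 1.985 with the first 10 bins in place of 20, and the cause was not tested. The first 20 coding bins of SRM held depths of 514 in the AZC + MG132, 513 in the CRISPR and 1028 in the parental table. Depths of this size can come from few fragments. The negative changes of the 5′ UTR to coding ratio of AZIN1, AMD1 and OAZ1 after AZC and MG132 kept their sign under the 6 alternatives. Those on the choice of row could not change AMD1 or OAZ1, which have a single row. The split of antizyme depth at the frameshift site was not run, since no sequence to place the site was used. No paired analysis was possible because each condition has 1 table with no column per library, and no library could be left out for the same reason.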
